A study of Rattus norvegicus with 10 samples.

Results

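The array used to profile the rat aorta carries 38804 probes other than controls. Of these, 9354 are the lncRNA probes described here, chosen by the start of the probe name. A total of 5506 names begin with ASRNV2 and 3848 begin with ASRN6LNC1A. The 20 lncRNA probes that the study listed as its leading differentially expressed lncRNAs were left out, and the 28287 mRNA probes, whose names begin with ASRN6AP1B, served as the class for comparison. The deposited files identify the probes by name alone, so the lncRNA probes described here could not be tied to a gene, a position or a sequence. Among the 20 probes left out, for which transcripts were listed, all 13 with the ASRNV2 prefix were paired with RefSeq transcripts and all 7 with the ASRN6LNC1A prefix with Ensembl transcripts.

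Male Wistar rats aged 8 weeks received lipopolysaccharide (LPS), a component of the outer membrane of Gram-negative bacteria, at 10 mg/kg into the peritoneum (LPS group, n = 5), or saline alone (control group, n = 5). The aorta was taken after 24 h, and total RNA of each rat was hybridised to 1 single-colour Agilent array. The study asked which lncRNAs and mRNAs differ in the vessel wall in LPS-induced sepsis. The aorta was not separated into smooth muscle, endothelium or other vascular cells, and the study's methods describe no step to remove adventitia or attached fat. In such tissue fewer cells of a type and less RNA per cell cannot be told apart. The study's supplementary lists pair 20 mRNA probes with genes, none of which defines smooth muscle or endothelium, so the tissue label could not be checked against such markers.

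Long non-coding RNAs are transcripts longer than the usual limit for small RNAs that do not serve as templates for proteins. Many act in the nucleus, where they guide chromatin regulators or keep nuclear bodies together, and others bind proteins, mRNAs or microRNAs in the cytoplasm. They are known for lower abundance and for narrower expression across cell types than mRNAs, which is why their detection above background comes before any comparison of groups.

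No spot was saturated, and the 75th percentile of the intensity of an array, used here as its scale, ranged from 190.8 in control rat 16 to 456.3 in LPS rat 1. Of the 45 pairs of arrays, 2 pairs differed by no more than the spot errors given by the scanner's software. The ratio of the squared difference to the squared error was 0.778 for control rats 15 and 17 and 0.984 for LPS rats 1 and 3, while it lay between 4.01 and 13.0 for the other 43 pairs. Each of these 2 pairs was therefore counted as 1 sample, which left 4 LPS and 4 control samples. By scan time the arrays fell into 3 sets, called slides here for short although only the scan time was used. Of these, 1 held 4 control arrays, 1 held 3 LPS arrays and 1 control array, and 1 held 2 LPS arrays. The slide and the group therefore overlap strongly. A fit with the slide as a block takes the group difference from the 1 slide with both groups, where control rat 20 is the only control. Over the 8 samples, its differences are those of that slide and not a separate check.

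The lncRNA probes were detected less often than the mRNA probes on all 10 arrays. A probe was taken as detected where the software marks its signal as well above background. Among the LPS arrays, the share of lncRNA probes detected was 86.1% in rat 1, 83.0% in rat 3, 76.1% in rat 5, 76.0% in rat 6 and 81.6% in rat 7. Among the control arrays it was 76.7% in rat 15, 65.0% in rat 16, 86.0% in rat 17, 70.4% in rat 18 and 73.2% in rat 20. Control rat 16 was the lowest, and the ranges of the LPS and control groups overlapped. The mean was 80.6% ± 4.43 (SD, n = 5) in the LPS group and 74.3% ± 7.84 (SD, n = 5) in the control group, where the arrays of a near-identical pair, which may hold the same RNA sample, are counted separately. With each pair averaged, the means were 79.6% ± 4.23 (SD, n = 4) and 72.5% ± 6.82 (SD, n = 4), and 74.998% ± 5.68 (SD, n = 3) in the control group without rat 16. For mRNA probes the means over 5 arrays were 92.9% ± 1.84 and 90.2% ± 3.63. The gap between the classes was 8.85 percentage points on the array of LPS rat 1 and 20.5 points on that of control rat 16, which are the brightest and the dimmest array by the 75th percentile. With the software's weaker flag, for a positive and significant signal, the classes were closer, with means over the 10 arrays of 92.7% for ASRNV2, 92.9% for ASRN6LNC1A and 97.5% for mRNA, against 76.7%, 78.4% and 91.5% with the flag used here.

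The ASRN6LNC1A probes were detected slightly more often than the ASRNV2 probes on all 10 arrays, by 0.08 to 4.63 percentage points (median 1.64). The ASRNV2 probes were detected at 80.2% ± 4.73 on the LPS arrays and 73.3% ± 8.30 on the control arrays, and the ASRN6LNC1A probes at 81.0% ± 3.99 and 75.7% ± 7.22.

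**Figure D1:**
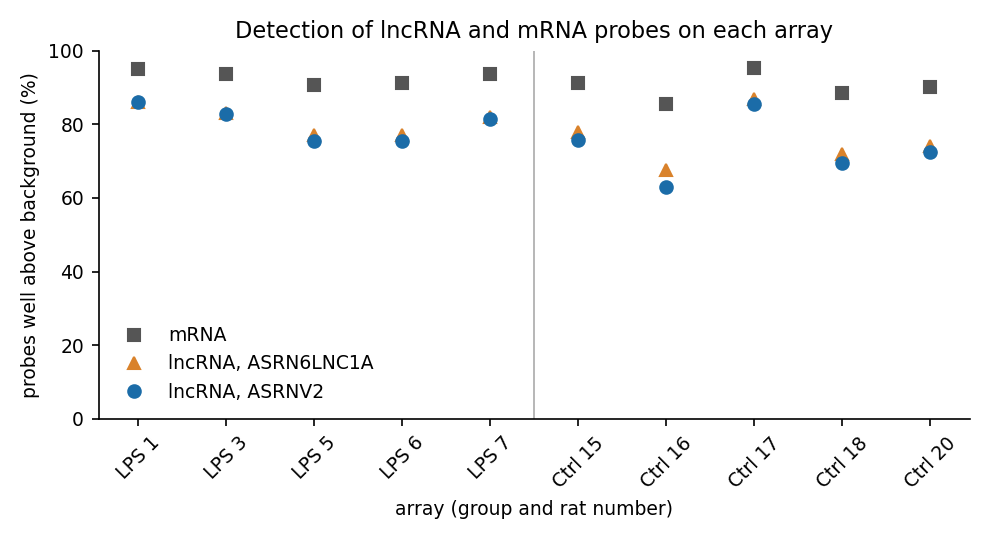
Share of probes well above background (vertical axis, %) on each of the 10 arrays (horizontal axis, group and rat number), with squares for mRNA probes, triangles for ASRN6LNC1A probes and circles for ASRNV2 probes. Both kinds of lncRNA probe lie below the mRNA probes on every array, and the lowest values are those of control rat 16, at 63.1% for ASRNV2 and 67.7% for ASRN6LNC1A.

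Seen over all arrays, 5654 of the 9354 lncRNA probes (60.4%) were detected on all 10 arrays, 1788 (19.1%) on 5 to 9, 1059 (11.3%) on 1 to 4 and 853 (9.12%) on none. Of the mRNA probes, 83.4% were detected on all 10 arrays and 2.87% on none. The share never detected was 9.39% for ASRNV2 and 8.73% for ASRN6LNC1A, and the share detected on all arrays was 58.3% and 63.5%. Thus 7442 lncRNA probes (79.6%) and 26240 mRNA probes (92.8%) were detected on at least 5 arrays and entered the comparison of the groups. The 1912 lncRNA probes below this limit were not compared.

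More lncRNA probes were detected on more LPS arrays than control arrays than the reverse. There were 2051 such probes (21.9%) against 427 (4.56%), and among mRNA probes the shares were 9.83% and 2.19%. On all 5 LPS arrays and no control array, 6 lncRNA probes (0.0641%) and 11 mRNA probes (0.0389%) were detected, and on all 5 control arrays and no LPS array 1 lncRNA probe and 0 mRNA probes.

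The call of detection also differed between arrays that were near-identical. Within the pair of near-identical control arrays, 76.7% of lncRNA probes were detected in rat 15 and 86.0% in rat 17, with 908 lncRNA probes detected in rat 17 alone and 34 in rat 15 alone. The 75th percentiles of these arrays were 257.1 and 304.7. Within the pair of near-identical LPS arrays, 391 lncRNA probes were detected in rat 1 alone and 97 in rat 3 alone. The call thus differed for 10.1% and 5.22% of lncRNA probes between arrays that agreed within the spot error, and for 4.38% and 1.92% of mRNA probes. Control rat 20 had a 75th percentile of 401.0 and a share of 73.2%. The part of array brightness in the difference of detection between the LPS and control groups was not tested.

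The lncRNA probes were dimmer than the mRNA probes in all 8 samples. Brightness is the log2 intensity relative to the 75th percentile of the array. It depends on the affinity of each probe as well as on the amount of RNA. It was therefore compared for classes and other sets of probes, and a rank of single probes by brightness is not a rank of RNA amounts. The median over the probes of a class was -3.84 for ASRNV2, -3.49 for ASRN6LNC1A and -1.74 for mRNA. The median of the ASRNV2 probes lay below that of the mRNA probes by 1.94, 1.94, 2.05 and 2.08 log2 units in the 4 LPS samples and by 2.04, 2.21, 2.15 and 2.18 in the 4 control samples. The control samples tended to a wider gap, and the groups overlapped. For the ASRN6LNC1A probes the gap to the mRNA probes was 1.63 to 1.80 in the LPS samples and 1.67 to 1.86 in the control samples. The ASRN6LNC1A probes were brighter than the ASRNV2 probes by 0.28 to 0.37 in every sample. The size of the gap depended on the background correction. Over the tested probes, the ASRNV2 and ASRN6LNC1A medians lay at -1.78 and -1.41 relative to that of mRNA with the software's correction. They lay at -0.89 and -0.75 with normexp, which was run with an offset of 50. Such an added offset narrows the gap by itself.

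The classes overlapped widely in brightness. A total of 2021 lncRNA probes (21.6%) were brighter than the median mRNA probe, made up of 19.4% of ASRNV2 and 24.8% of ASRN6LNC1A probes. Among the brightest 10% of lncRNA and mRNA probes, ranked in 1 list, were 217 lncRNA probes (2.32% of all of them) and 12.5% of the mRNA probes.

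**Figure D2:**
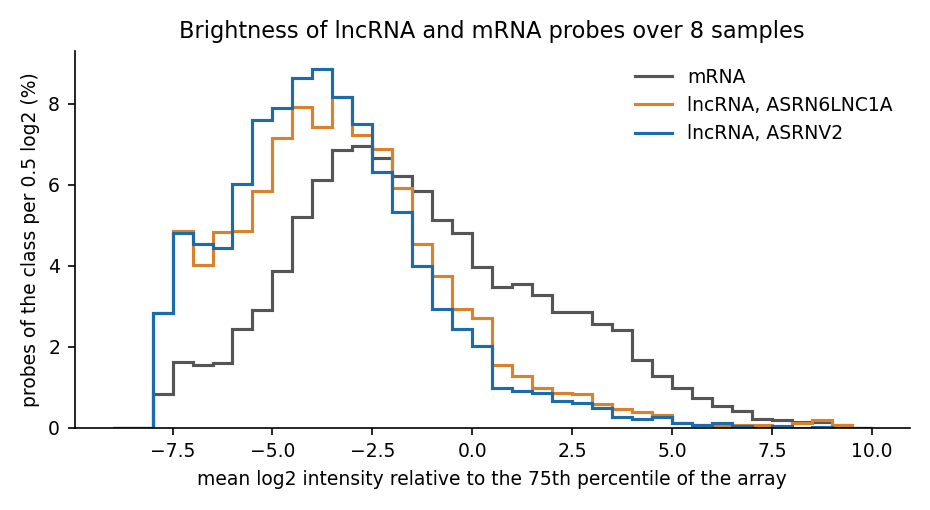
Distribution of mean log2 intensity relative to the 75th percentile of the array over 8 samples (horizontal axis, log2 units), as the percentage of the probes of each class in each bin (vertical axis). Both lncRNA classes peak to the left of the mRNA probes, with medians of -3.84 for ASRNV2, -3.49 for ASRN6LNC1A and -1.74 for mRNA.

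Within the ASRN6LNC1A prefix, brightness differed with the number in the probe name. The 3848 probes were ordered by this number and divided into 4 equal parts of 962. In the first part, with numbers from 100000028 to 100002791, the median brightness was -3.89, and in the next parts it was -3.74 and -3.85. In the last part, with numbers from 100008467 to 100730739, the median was -2.66. Of the probes in the last part, 77.3% were detected on all 10 arrays and 89.5% on at least 5, against 57.7% to 60.0% and 75.4% to 77.1% in the other parts. What the number stands for is not given in the sources used here. The 4 parts of the ASRNV2 probes ranged only from -3.99 to -3.57 in median brightness, and from 78.5% to 81.5% in the share detected on at least 5 arrays.

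The spread between samples of a group was about the same for lncRNA and mRNA probes. Over the tested probes, the median pooled SD within groups was 0.41 on the log2 scale for ASRNV2, 0.39 for ASRN6LNC1A and 0.41 for mRNA. An SD above 1 was found for 494 lncRNA probes (6.64%) and 5.75% of mRNA probes. Each of these probes has 1 spot on the array. For 184 other probes with several spots, the median SD between spots of 1 array was 0.09 to 0.13 on the log2 scale, and the median error that the software assigns to a spot was 10.6% to 13.2% of the signal for ASRN6LNC1A, 10.9% to 14.9% for ASRNV2 and 10.1% to 10.3% for mRNA. Between the near-identical arrays, the lncRNA probes differed by a median of 0.18 in either pair, and the mRNA probes by 0.16 in the control pair and 0.18 in the LPS pair.

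Samples of the control group tended to differ more from each other than samples of the LPS group, with overlap. Between LPS samples, the median absolute difference over lncRNA probes was 0.30 to 0.43 in the 6 pairs, and between control samples it was 0.39 to 0.56. Pairs made of an LPS and a control sample gave 0.32 to 0.61, so that pairs across groups were not set apart from pairs within a group. The median SD of ASRNV2 probes was 0.32 in the LPS group and 0.45 in the control group, that of ASRN6LNC1A probes 0.31 and 0.42, and that of mRNA probes 0.36 and 0.42. The SD was larger in the control group for 5252 lncRNA probes (70.6%) and for 60.9% of mRNA probes. Without control rat 16, the array of lowest signal, the median SD over lncRNA probes in the control group went from 0.44 to 0.37, and the share with the larger SD in the control group from 70.6% to 57.5%, and for mRNA probes to 52.3%.

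The difference between the classes in spread was small at like brightness. All 33702 tested probes were divided into 5 equal parts by mean brightness. In the dimmest part the median pooled SD was 0.46 for lncRNA and 0.44 for mRNA probes, in part 2 it was 0.36 for both, and in part 4 it was 0.40 for both. In the brightest part it was 0.42 for the 465 lncRNA probes and 0.47 for the mRNA probes. The lncRNA probes crowd into the dim parts, with 34.4% of them in the dimmest part and 6.25% in the brightest, against 15.9% and 23.9% of the mRNA probes.

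**Figure D3:**
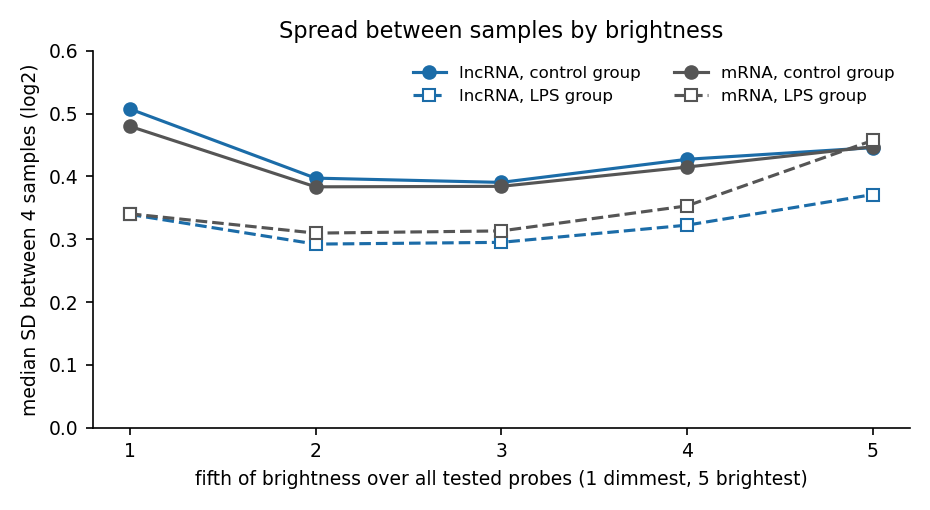
Median SD between the 4 samples of a group (vertical axis, log2 units) in 5 equal parts of all tested probes by brightness (horizontal axis, 1 dimmest), for lncRNA and mRNA probes in the control group (filled symbols) and the LPS group (open symbols). In the dimmest part the lncRNA probes had a median SD of 0.51 in the control group and 0.34 in the LPS group, and the lncRNA and mRNA lines of a group run close together in parts 1 to 3.

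Few of the lncRNA probes were differentially expressed between the LPS and control groups. With limma and a Benjamini-Hochberg adjustment over the 33702 tested probes, where a call needs both an adjusted p below 0.05 and more than a 1.5-fold difference, 23 of the 7442 tested lncRNA probes (0.309%) were up-regulated, and 1 (0.0134%) was called lower in the LPS group. Over all tested probes, 0.632% were up-regulated and 0.0593% down-regulated. The mRNA class had 182 up-regulated (0.694%) and 19 down-regulated probes (0.0724%). The p-values measure the spread between these 8 samples, of which 6 are single arrays and 2 are means of a near-identical pair. The up-regulated lncRNA probes comprised 15 of the 4374 tested ASRNV2 probes and 8 of the 3068 tested ASRN6LNC1A probes. The down-regulated probe was an ASRNV2 probe. No ASRN6LNC1A probe was down-regulated in limma over the 8 samples, although 80 had an unadjusted p under 0.05 in this direction. With 10 separate arrays limma called 4 of them down-regulated, and with the slide as a block and 10 separate arrays 3. The methods' t-test gave 37 without adjustment and 0 with Benjamini-Hochberg adjustment.

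With normexp, run with an offset of 50 that shrinks the differences of dim probes, the counts were lower mainly for lncRNA probes. There were 6 up-regulated and 0 down-regulated lncRNA probes (294 had an unadjusted p under 0.05) and 179 and 18 mRNA probes. The part of the offset in these counts was not tested. The methods' t-test, run on the same samples and scaling as limma and with Benjamini-Hochberg adjustment, left 5 and 0 lncRNA probes, and 40 and 1 mRNA probes. The 20 probes left out had been selected by the study on these arrays, and 8 of them were up-regulated. With these included, 32 of 7462 lncRNA probes (0.429%) were differentially expressed. The share was lower for lncRNA than for mRNA probes in all 26 settings that were run, with or without the 20 probes. When the near-identical arrays were counted separately, 1.99% of all tested probes were differentially expressed, with 89 lncRNA probes up-regulated in the LPS group and 14 down-regulated, which is 1.38% of the lncRNA probes against 2.12% of the mRNA probes. With the slide as a block, no lncRNA probe was differentially expressed in limma, with 382 at an unadjusted p under 0.05, and 6 mRNA probes were. With the slide as a block and 10 separate arrays, the lncRNA class had 2 up-regulated and 12 down-regulated probes, of which 1 was among the 24. Both fits with a block rest on the slide where control rat 20 is the only control. The number of up-regulated lncRNA probes was 9, 10 and 10 without LPS rat 5, 6 or 7. It was 12 without LPS rats 1 and 3 together, 15 and 12 without control rat 16 or 18, and 34 without control rat 20. For mRNA probes the numbers were, in the same order, 113, 89 and 87, then 137, then 139 and 124, and 251, against 182 with all samples.

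Some genes abundant in other cells, picked from the study's list of changed genes, differed between the groups. The study had chosen the mRNA probes paired with genes for their change on these arrays. Of these, 2 are probes of genes abundant in brown fat and 2 of genes abundant in neutrophils. Among these 4, 3 were differentially expressed (Cox8b was not, limma adjusted p = 0.190). The probe of Ucp1, the uncoupling protein of brown fat, ranged from 4.87 to 6.30 log2 units in the LPS samples and from 8.09 to 9.64 in the control samples, and that of Cox8b, a respiratory chain subunit of brown fat, from 2.22 to 4.72 and from 4.50 to 7.01, with overlap. The probes of S100a8 and S100a9, calcium-binding proteins abundant in neutrophils, ranged from 4.97 to 6.17 and from 4.51 to 5.47 in the LPS samples, and from -0.94 to 2.001 and from -0.51 to 2.07 in the control samples. Their part in the lncRNA counts was not tested.

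In contrast to the adjusted calls, fold changes above 1.5 and unadjusted limma p-values under 0.05 were about as common for lncRNA as for mRNA probes. A fold change above 1.5 in either direction was seen for 1348 lncRNA probes (18.1%), 18.05% of mRNA probes and 18.1% of all tested probes. An unadjusted p under 0.05 was found for 742 lncRNA probes (9.97%), of which 583 were higher in the LPS group and 159 lower, and for 10.4% of mRNA probes. The 4 LPS samples lay above the 4 control samples without overlap for 369 lncRNA probes (4.96%), against 4.34% of mRNA probes and 4.5% of all tested probes. They lay below without overlap for 84 lncRNA probes (1.13%), against 1.86% of mRNA probes and 1.71% of all tested probes. Of the ASRNV2 probes, 5.62% lay above and 0.732% below, and of the ASRN6LNC1A probes, 4.01% lay above and 1.69% below.

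The median log2 fold change between the LPS and control groups was 0.16 for ASRNV2, 0.11 for ASRN6LNC1A and 0.07 for mRNA probes, and 0.09 over all tested probes. It was positive for 65.3% of lncRNA and 58.0% of mRNA probes. The direction of these medians depended on the scaling, since the median over all tested probes moved from 0.09 to -0.10 with normexp background correction and to 0.01 with quantile normalisation. Relative to the mRNA probes, the median of ASRNV2 was higher by 0.09 and that of ASRN6LNC1A by 0.04 in the scaling used here, whereas they were lower by 0.04 and 0.03 with normexp. They were 0.15 and 0.14 with the slide as a block, 0.16 for both with the block and 10 separate arrays, and 0.12 and 0.10 without LPS rat 7. They were smaller with quantile normalisation (0.03 and -0.0023), with the authors' log2 values (0.03 and 0.0018), without control rat 16 (0.05 and 0.01) and without the averaged LPS rats 1 and 3 (0.04 and -0.01). For each single sample, the median deviation from its group mean was also taken, minus that of the mRNA probes. The pooled SD of this value within groups was 0.09 for ASRNV2 and 0.10 for ASRN6LNC1A. It is a spread of single samples and not an error of the differences above. Without control rat 16 the median log2 fold change over all lncRNA probes was 0.09 instead of 0.14.

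The median log2 fold change followed the brightness of the probes. From the dimmest to the brightest part, it was 0.25, 0.13, 0.06, 0.01 and 0.08 for lncRNA probes. For mRNA probes it was 0.23, 0.13, 0.04, -0.02 and 0.03. By prefix, it was 0.05 for ASRNV2 and -0.05 for ASRN6LNC1A in part 4, and 0.20 for the 233 ASRNV2 and -0.02 for the 232 ASRN6LNC1A probes in the brightest part. On the slide that holds both groups the order of the prefixes was the opposite, with 0.04 and 0.06 in part 4 and 0.03 and 0.05 in the brightest part. The share that was differentially expressed took the opposite course in mRNA probes, with 0.287% in the dimmest part and 1.16% in the brightest. In lncRNA probes it was 0.507% in the dimmest part, with 12 up-regulated and 1 down-regulated of 2563, then 0.369% with 7 of 1898, and 0.400% with 4 of 999 in part 4. The mRNA share was 0.351% in part 2 and 1.01% in part 4. Over all tested probes the share was 0.371%, 0.356%, 0.638%, 0.964% and 1.13% from the dimmest to the brightest part. None of the 1517 lncRNA probes of part 3 was differentially expressed in limma, with 111 at an unadjusted p under 0.05, against 0.786% of the mRNA probes. None of the 465 lncRNA probes of the brightest part was differentially expressed in limma, with 46 at an unadjusted p under 0.05. The methods' t-test without adjustment gave 67 and 23 lncRNA probes in these parts, and with Benjamini-Hochberg adjustment it gave 0 in both.

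**Figure D4:**
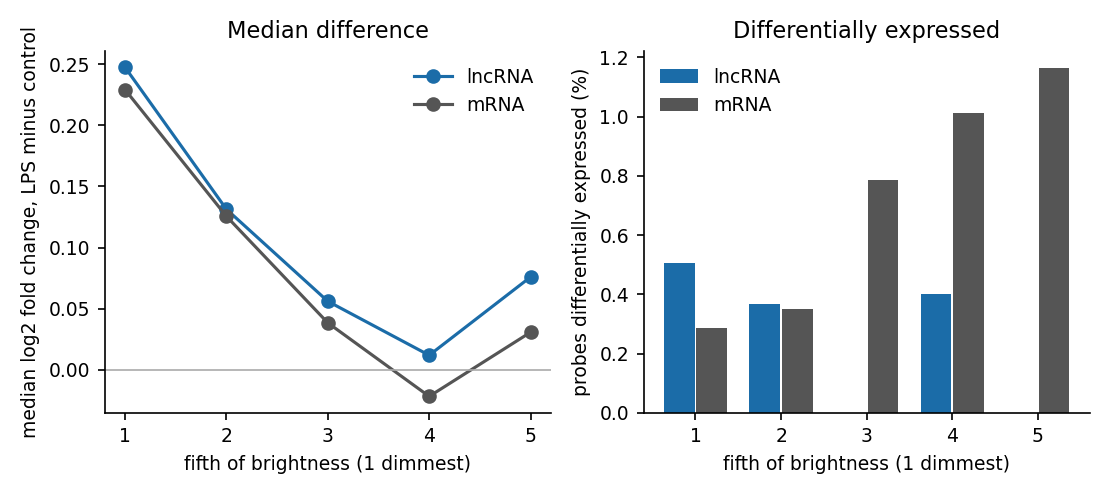
Median log2 fold change between the LPS and control groups (left, vertical axis in log2 units) and share of probes differentially expressed (right, vertical axis in %), in 5 equal parts of the tested probes by brightness (horizontal axes, 1 dimmest), for lncRNA and mRNA probes. The medians start at 0.25 for lncRNA and 0.23 for mRNA probes in the dimmest part, while the share of differentially expressed probes rises to 1.16% for mRNA probes only.

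The 24 differentially expressed lncRNA probes were mostly dim. Their median brightness was -4.01, with a range from -5.81 to 1.23, against a median of -3.07 over all tested lncRNA probes and of -0.11 over the 201 differentially expressed mRNA probes. Only 8 of the 24 were detected on all 10 arrays, compared with 178 of the 201 mRNA probes. A further 13 were detected on all 5 LPS arrays but only on 1 to 4 control arrays, and 3 in one group alone. The latter 3 passed the limit of 5 arrays through one group and had to differ. Without them the lncRNA class had 21 up-regulated probes and 0 down-regulated ones. The 13 probes also met this limit on the LPS arrays alone, so the 21 are not free of the filter. For the 2 up-regulated lncRNA probes that did not clear background on any control array, the difference was at least 1.67-fold and at least 1.82-fold. Among mRNA probes, 4 of the 201 had passed through one group. For the 8 up-regulated lncRNA probes detected on all 10 arrays, the log2 fold change ran from 1.17 to 2.71, with a median of 1.68. For the 13 detected on only 1 to 4 control arrays, of which 3 were detected on 1, the fitted values ran from 1.35 to 2.92 and rest in part on control signals that did not clear background.

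**Figure D5:**
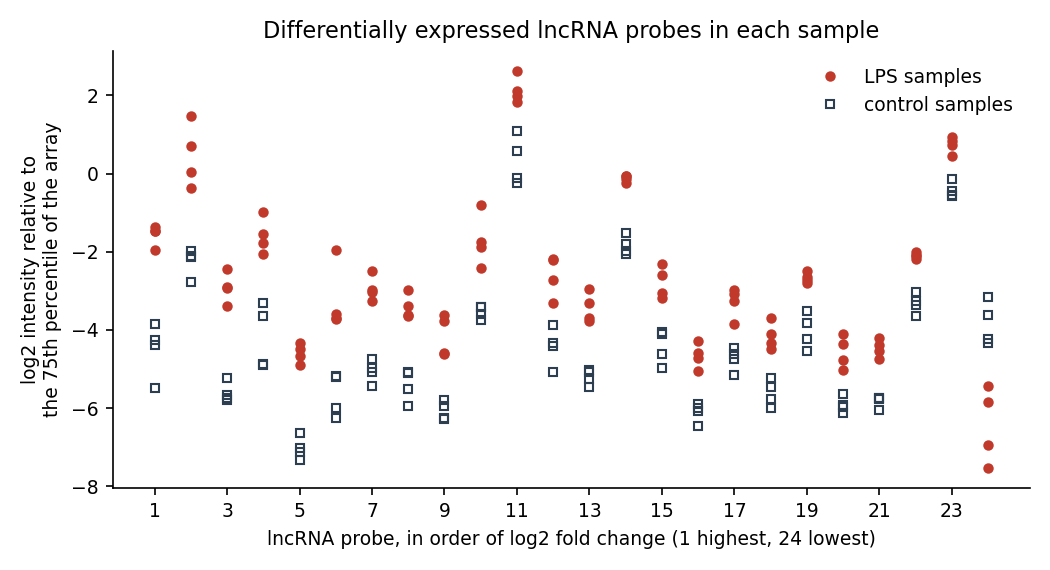
Log2 intensity relative to the 75th percentile of the array (vertical axis) in the 4 LPS samples (filled circles) and 4 control samples (open squares) for each of the 24 differentially expressed lncRNA probes (horizontal axis, ordered by log2 fold change). The groups do not overlap for any of the 24, which also holds for all 233 differentially expressed probes of the whole test. The only probe that is lower in the LPS samples stands at the right end.

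In the 8 samples, with the scaling used here, the up-regulated lncRNA probe of largest difference was ASRNV20029538V3. Its log2 intensity relative to the 75th percentile was -1.48 in the averaged LPS rats 1 and 3, -1.48 in rat 5, -1.94 in rat 6 and -1.35 in rat 7. In the control group it was -4.25 in the averaged rats 15 and 17, -5.48 in rat 16, -4.38 in rat 18 and -3.84 in rat 20. The LPS samples lay close together and far above the control samples, of which rat 16 was the lowest. The log2 fold change was 2.92 (SE 0.34, limma adjusted p = 0.00443), and it was 2.36 within the slide that holds both groups. With normexp and its offset it was 0.98. The adjusted p was above 0.05 with the slide as a block (0.430), with the block and 10 separate arrays (0.108) and with the methods' t-test after Benjamini-Hochberg adjustment (0.0769). The probe was detected on 5 LPS and 4 control arrays.

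The next was ASRNV20034867V3, which was detected on all 10 arrays. It measured 1.48, -0.38, 0.70 and 0.05 in the LPS samples, in the same order, and -2.13, -2.10, -2.78 and -1.98 in the control samples. Here the LPS samples were spread more widely than the control samples (SD 0.81 and 0.36, n = 4 each), without overlap. The log2 fold change was 2.71 (SE 0.39, limma adjusted p = 0.0147), and it was 2.53 within the mixed slide. This probe had the larger difference of the pair with normexp (1.92), with the slide as a block (2.53), with the block and 10 separate arrays (2.84), without LPS rat 5 (2.99) and without control rat 16 (2.76). Its adjusted p was above 0.05 under the same 3 settings, at 0.627, 0.184 and 0.145, and without LPS rat 6, at 0.0643.

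The single lncRNA probe down-regulated in the 8 samples, with the scaling used here, was ASRNV20033370V3. It measured -5.83, -6.95, -5.43 and -7.53 in the LPS samples and -3.17, -3.62, -4.23 and -4.34 in the control samples. Its signal did not clear background on any of the LPS arrays but was detected on all 5 control arrays, so that only a limit can be given. It was at least 3.35-fold lower in the LPS group, with group means of -6.44 ± 0.97 and -3.84 ± 0.55 (SD, n = 4 each) and a limma adjusted p of 0.0481. This limit holds for the software's background correction only. With normexp and its offset, which shrinks the differences of dim probes, the log2 fold change was -0.51 (limma adjusted p = 0.582). This probe passed the limit through the control group alone, and the call was lost in 16 of the 24 alternatives that give a p.

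Since no other lncRNA probe was down-regulated in the 8 samples with the scaling used here, the one of smallest p among those lower in the LPS group was taken. This was ASRNV20026927V3. It was detected on all 10 arrays and measured -1.87, -1.28, -1.78 and -2.01 in the LPS samples and -0.28, -1.004, -0.47 and 0.08 in the control samples. The groups did not overlap, but the log2 fold change of -1.32 (SE 0.28) did not pass the adjustment (limma adjusted p = 0.0858). It passed with 10 separate arrays (adjusted p = 0.00896) and without control rat 16 (adjusted p = 0.0473), and the adjusted p ran up to 0.547 over the other alternatives. Within the mixed slide it was -1.66.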

How the data were processed

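Aortic RNA of 5 LPS and 5 control rats was hybridised to 10 single-colour (Cy3) arrays. The authors obtained the deposited intensity of each spot with Agilent Feature Extraction (version 11.0.1.1 in the submitters' processing notes), which corrects for background within an array. No step between arrays had been applied to these intensities. The files also hold flags for well above background and for outlier spots, and an error for each spot. The authors further deposited a table of log2 values for 38802 of the probes, whose median was 5.84 on every array. Its correlation with the log2 intensity of the same array, across probes, ranged from 0.9896 to 0.9944. Its scale is log2, its values are not centred on 0 per probe, higher values mean more signal, and its normalisation is not given in the sources used here. No columns were left unused for want of a sample (0 columns). Dose and time came from the methods of the study.

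Outlier spots (92 to 164 of 41800 per array) were left out, the 75th percentile of an array was subtracted from its log2 intensities, and repeated spots were merged by their mean. A probe had to be detected (flag for well above background) on 5 or more of the 10 arrays and was then compared with limma (version 3.58.1, lmFit and eBayes, in R 4.3.3) over 8 samples, with Benjamini-Hochberg adjustment over the 33702 lncRNA and mRNA probes tested. A call needed an adjusted p below 0.05 together with more than a 1.5-fold difference. Summaries were made with pandas 2.3.3 in Python 3.11.15. For a probe not well above background in a group, the limit was computed against the lowest signal well above background. The number of arrays limits the precision. In a test on simulated data (LPS against control, 8 samples, 33702 probes), limma called 66 of 100 probes changed by 2 on the log2 scale, 84 of 100 changed by 3, and 12 of 33502 unchanged probes.

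The text names the 2 called lncRNA probes in each direction with the largest difference and no overlap of the groups, and where a direction has fewer than 2, the lncRNA probe of that direction with the smallest p. The probes, classes and tests were chosen with earlier results of these data known. The alternatives were 10 separate arrays, other scalings, normexp (offset 50) in place of the software's background correction, the authors' log2 values, other filters, the methods' t-test (run on the 8 samples and the scaling used here, not on the study's own values), a block for the slide, a trended and robust prior, another detection flag, and each array or near-identical pair left out. Some values without control rat 16, the array of lowest signal, were added after seeing the data. They were the detection and SD of the control group and the share of probes with the larger SD there. The median log2 fold change over all lncRNA probes without this rat was also added then. The counts of calls and the other values without this rat came from leaving out each array. Gene names for 4 marker probes came from the study's supplementary lists, and these probes were picked after their values were known.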

Additional observations from a re-analysis of the deposited data

Results flagged for a closer look

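Of 24 groups of 4 or 5 values examined for a single value far from the others, 2 held one, where chance flags about 1 in 20. In the control group, the averaged rats 15 and 17 had a smaller gap between the median brightness of mRNA and ASRN6LNC1A probes, at 1.67 log2 units, than the other 3 control samples (1.85 to 1.86). In the same group, the ASRNV2 probes of rat 16 differed from the mean of the group by a median of 0.38 log2 units, against 0.26 to 0.27 in the other 3 control samples.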

How the results depend on the processing

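Counts are given as up-regulated and then down-regulated probes, beside 23 and 1 lncRNA and 182 and 19 mRNA probes in the report. Those that differed by over 1.5 times follow, and the cause was not tested. With 10 separate arrays, there were 89 and 14 lncRNA and 461 and 94 mRNA probes. With the methods' t-test without adjustment there were 372 and 75 lncRNA and 1236 and 485 mRNA probes, and with Benjamini-Hochberg adjustment 5 and 0 lncRNA and 40 and 1 mRNA probes. With the slide as a block there were 0 and 0 lncRNA and 3 and 3 mRNA probes, and with the slide as a block and 10 separate arrays 2 and 12 lncRNA and 49 and 70 mRNA probes. Normexp left 6 and 0 lncRNA probes, and detection on all 10 arrays 10 and 0. No filter, a trended and robust prior and the 75th percentile of probes detected on all arrays each left 0 lncRNA probes down-regulated. With an array or pair left out, the up-regulated lncRNA probes numbered 9 to 34, the down-regulated 0 to 1, and the mRNA probes 87 to 251 and 4 to 25. The fewest lncRNA probes came without LPS rat 5, and the most without control rat 20. The ASRN6LNC1A median log2 fold change minus that of mRNA, 0.04, became -0.0023 with quantile normalisation, -0.035 with normexp, 0.14 with the slide as a block or on the mixed slide alone, and 0.16 with the slide as a block and 10 separate arrays, and ran from -0.012 to 0.10 with an array left out. That of ASRNV2, 0.09, became -0.037 with normexp, 0.15 with the slide as a block or on the mixed slide alone, and 0.16 with the block and 10 separate arrays. The median log2 fold change itself became -0.13 for ASRNV2, -0.12 for ASRN6LNC1A and -0.090 for mRNA with normexp, -0.00097 for ASRN6LNC1A with quantile normalisation and -0.0046 for mRNA with the median as the scale. The median within-group SD of ASRNV2, ASRN6LNC1A and mRNA became 0.27, 0.27 and 0.29 with normexp and 0.37, 0.35 and 0.37 with the authors' values, that of mRNA 0.37 with quantile normalisation and that of ASRN6LNC1A 0.42 with the scale of probes detected on all arrays. With an array left out it ran from 0.37 to 0.42, 0.36 to 0.40 and 0.39 to 0.42. Median brightness of tested probes minus that of mRNA, -1.78 for ASRNV2 and -1.41 for ASRN6LNC1A, was -0.89 for ASRNV2 and -0.75 for ASRN6LNC1A with normexp, -2.10 and -1.75 without a filter, and -1.51 and -1.23 with detection on all 10 arrays. With the flag for a positive and significant signal, 92.7% of ASRNV2, 92.9% of ASRN6LNC1A and 97.5% of mRNA probes were detected. For 3 of the 24 called lncRNA probes, no array of a group cleared background, which leaves only a limit, and for 13 more only 1 to 4 control arrays did. An adjustment over the lncRNA probes alone was planned and not run. No paired analysis was possible because the groups share no replicate numbers.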
